A study of Mus musculus with 16 samples.

Results

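Toll-like receptors and the proteins that work directly with them were followed in RNA-sequencing counts of mouse peritoneal macrophages. The set was taken by gene symbol and holds 10 of the 15871 entries of the count table: Cd14, Ly96, Tlr2 and Tlr4 at the cell surface, Tlr3, Tlr7, Tlr8, Tlr9 and Tlr13 in endosomes, and the adaptor gene Myd88. All 10 passed the filter on low counts and were tested with 13527 entries in all. The cells were wild-type C57BL/6 macrophages drawn into the peritoneal cavity of 8-week-old mice by an injection of 6% starch, and all libraries share this elicitation and 48 h of treatment. There were 4 groups of 4 libraries. H_O received high glucose (33 mmol/L) together with oxidised low-density lipoprotein (ox-LDL, which macrophages take up to become foam cells), H_C received high glucose alone, L_O received ox-LDL in low glucose, and L_C was low glucose medium with 27.5 mM mannitol as an osmotic control. The labels give ox-LDL at 50 mg/ml, where the unit is in doubt, and the low glucose concentration is not given in the sources used here. The L_O label names no mannitol, so ox-LDL cannot be told apart from the loss of mannitol in L_O against L_C, nor glucose from osmolarity in H_O against L_O. Whether the replicates are separate animals or cultures is not stated, and each p-value is set against the spread among these libraries alone, which may be technical. By its title, the study sought genes that could serve in the diagnosis or treatment of atherosclerosis when glucose is high.

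Toll-like receptors recognise molecules of microbes and of damaged cells and start inflammatory gene expression. TLR4 detects bacterial lipopolysaccharide, which CD14 hands to the complex of TLR4 with MD-2, the product of Ly96. TLR2 pairs with TLR1 or TLR6 and detects lipopeptides. The endosomal receptors detect nucleic acids: TLR3 double-stranded RNA, TLR7 and TLR8 products of single-stranded RNA, TLR9 DNA with unmethylated CpG, and the rodent receptor TLR13 bacterial ribosomal RNA. Apart from TLR3, these receptors signal through MYD88, while TLR3 uses TRIF, and TLR4 uses both adaptors. In plaques, signalling through TLR2 and TLR4 has been tied to inflammation, and the scavenger receptor CD36 can work with TLR4 and TLR6 in the response to ox-LDL.

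In the mm10 assembly with GENCODE vM21, Tlr7 (chrX:167304929-167330558) and Tlr8 (chrX:167242696-167264329) lie side by side on the minus strand of the X chromosome, and Tlr13 (chrX:106143204-106160493, plus strand) lies elsewhere on it. Tlr9 (chr9:106222598-106226883, plus strand) and Myd88 (chr9:119335934-119341411, minus strand) are both on chromosome 9. Cd14 is at chr18:36725067-36726798 (minus strand), Tlr4 at chr4:66827584-66930284 (plus strand), Tlr2 at chr3:83836272-83841767 (minus strand), Ly96 at chr1:16688051-16709611 (plus strand) and Tlr3 at chr8:45395665-45411080 (minus strand). The strand setting of the counts is not given in the sources used here. Myd88 overlaps Acaa1a on the opposite strand and shares 7.42% of its 50-base stretches with it, and Tlr3 overlaps the antisense gene Gm45542 and shares 5.3%, so reads of these pairs may not be told apart. The Myd88 span also overlaps that of Slc22a14 on the same strand, and its shared stretches were with Acaa1a alone. The other members shared at most 0.216% of such stretches with any other gene.

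Library totals lay between 32596600 and 41712900 counts, which gave each member between 243 and 28903 reads in a library. The 8 macrophage-defining markers summed to 19623 to 21175 CPM (reads scaled to each library's total, with TMM factors) in H_O, 18893 to 19294 in H_C, 18555 to 19259.7 in L_O and 17808 to 20596 in L_C. Most of this sum was Lyz2, at 15890 CPM in H_O, 14733 in H_C, 14476 in L_O and 14097 in L_C on average. By the edgeR test given below, 3 of the 8 fell and 1 rose in L_O against L_C. In H_O against H_C 2 fell and 3 rose, in H_C against L_C 3 fell and 1 rose, and in H_O against L_O none fell and 2 rose. Of all tested genes, 13.8%, 11.5%, 7.75% and 3.39% fell and 12%, 10.4%, 5.02% and 2.71% rose in turn. L_C replicate 4 stood apart. Its mitochondrial genes took 3.71% of counts, while replicates 1 to 3 of L_C had 1.48 to 1.95%, and its ribosomal protein genes took 1.41%, against 1.79 to 1.84%. In it, 25.4% of tested genes were over 1.2 times their mean in the other 3 L_C libraries, and 5 of the 10 members were: Tlr9 at 156%, Ly96 at 152%, Tlr8 at 145%, Tlr7 at 138% and Tlr3 at 133%. In bulk RNA, fewer cells of a type and less RNA per cell cannot be told apart.

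The RefSeq promoter table (GRCm38.p6) held 6 of the 10 members: Tlr2, Tlr3, Tlr8, Tlr9, Tlr13 and Myd88. The 250 bases before the start of Tlr9 and of Tlr8 are shown because these endosomal receptors moved in opposite directions in the same libraries, Tlr9 down and Tlr8 up in H_O against H_C. Capitals mark letters that matched a searched motif.
Tlr9, chr9:106222348-106222597, plus strand: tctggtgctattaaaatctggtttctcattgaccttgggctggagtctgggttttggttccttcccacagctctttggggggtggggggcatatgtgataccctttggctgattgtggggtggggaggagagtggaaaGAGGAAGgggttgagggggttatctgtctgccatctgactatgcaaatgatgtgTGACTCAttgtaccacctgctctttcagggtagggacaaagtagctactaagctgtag
Tlr8, chrX:167264330-167264579, minus strand: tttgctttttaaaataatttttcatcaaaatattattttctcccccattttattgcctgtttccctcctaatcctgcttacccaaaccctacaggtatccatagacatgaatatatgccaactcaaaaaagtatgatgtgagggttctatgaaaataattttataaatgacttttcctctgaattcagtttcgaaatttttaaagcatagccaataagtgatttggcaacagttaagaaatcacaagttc
The Tlr9 window held a PU.1 motif (GAGGAAG) that starts 112 bases before the gene and an AP-1 motif (TGANTCA, here TGACTCA) that starts 58 bases before it. The Tlr8 window, with 31.2% G and C against 50.4% in that of Tlr9, held none of the 4 motifs searched on both strands (NF-kB, interferon response, PU.1 and AP-1). In the other windows, Tlr13 had a PU.1 motif at 83 bases, Myd88 an interferon response motif (GAAAGCGAAA) at 40 bases, and Tlr2 and Tlr3 NF-kB motifs at 173 bases and at 211 and 23 bases. The 2 overlapping matches of Tlr2 form a single stretch of 11 bases, GGGGAATTCCC. All distances are counted from the starts in the RefSeq promoter table. For Tlr2, Tlr3, Tlr13 and Myd88 these starts lie inside the GENCODE gene spans given above, and that of Tlr13 was not found in a GENCODE transcript. Of 32851 promoters of the same length, 45.8% held the NF-kB motif, 10.6% that of PU.1, 6.75% that of AP-1 and 2.98% that of the interferon response, so a match is a description of these windows.

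The members did not move as a block. With ox-LDL in low glucose (L_O against L_C), 4 of the 10 members fell (Tlr9, Cd14, Tlr4 and Tlr13) and none rose, where 13.8% of all tested genes fell and 12% rose. The test was edgeR's two-sided quasi-likelihood test with Benjamini-Hochberg adjustment over all tested genes and a threshold of 0.05. With ox-LDL in high glucose (H_O against H_C), 3 fell (Tlr9, Cd14 and Tlr13) and 2 rose (Tlr8 and Myd88), beside 11.5% and 10.4% of all genes. With high glucose alone (H_C against L_C), Cd14 and Tlr7 rose and Tlr9 and Tlr3 fell, beside 5.02% of all genes that rose and 7.75% that fell. With high glucose in the presence of ox-LDL (H_O against L_O), 3 members rose (Cd14, Tlr7 and Tlr4) and none fell, beside 2.71% and 3.39% of all genes. In either direction, 25.8%, 21.9%, 12.8% and 6.11% of all tested genes were called in these 4 comparisons in turn. The median log2 fold change over the 10 members was -0.10, -0.04, 0.04 and 0.07 in these comparisons in turn, against 0.00092, 0.0089, -0.0045 and 0.0030 over all tested genes. The 4 comparisons share groups and are not independent of each other.

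**Figure D1:**
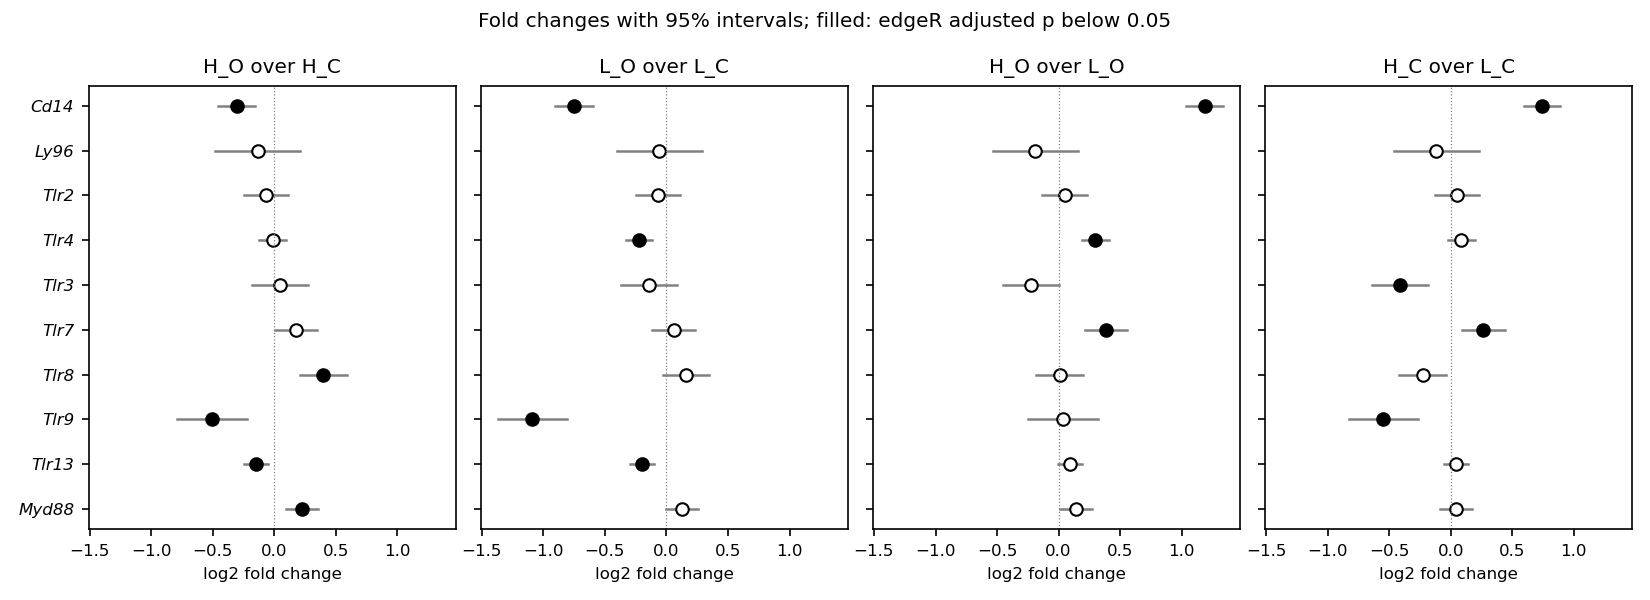
Log2 fold change of each member (horizontal axis, with 95% interval) in the 4 pairwise comparisons, one panel each, with filled points for genes past the adjusted threshold. Cd14 lay below 0 in both ox-LDL comparisons and above 0 in both glucose comparisons, while Tlr2 and Ly96 had intervals across 0 in all panels.

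Without L_C replicate 4, 13734 entries were tested and 2 more members passed in L_O against L_C, where Tlr7 and Tlr8 rose, so that 4 fell and 2 rose beside 28.3% of all genes called in either direction. In H_O against H_C the fit without that library also called Tlr7 higher (28.9% of all genes called), since all 16 libraries share an estimate of the spread. It also called Tlr13 higher in H_C against L_C (15.9% called) and in H_O against L_O (12.8% called). With library totals alone in place of TMM, 2857 genes of L_O against L_C rose and 1392 fell, against 1623 and 1867 with TMM, and 2176 rose and 1166 fell in H_O against H_C, against 1406 and 1556. Under that scaling Tlr8 and Myd88 were called higher and Tlr4 was not called in L_O against L_C, and in H_O against H_C Tlr7 was called higher and Tlr13 was not called.

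**Figure D2:**
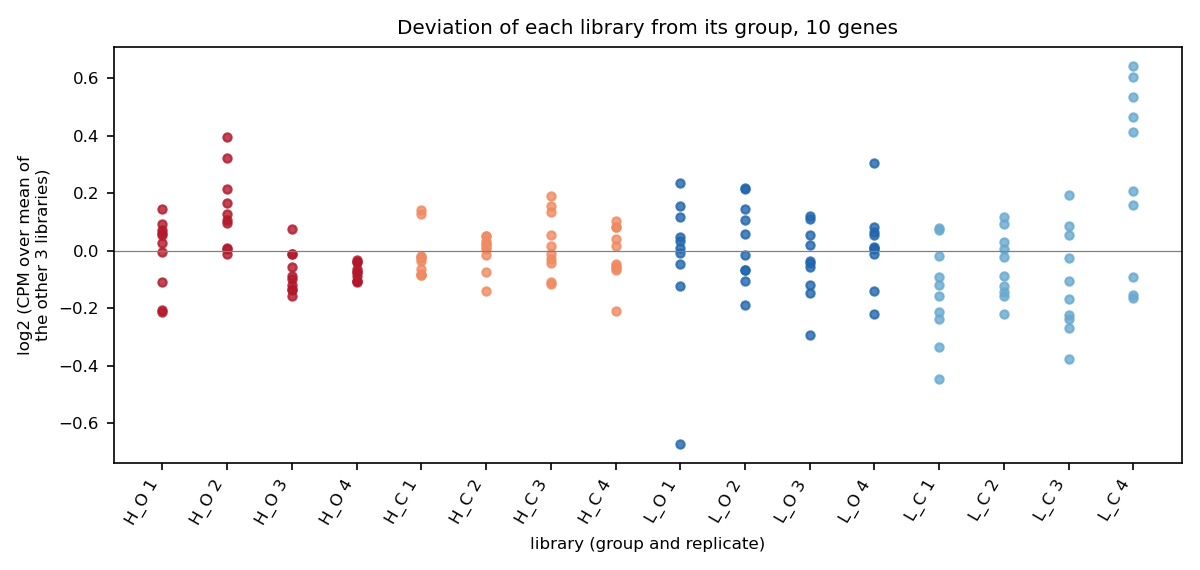
Log2 ratio of each library's CPM over the mean of the other 3 libraries of its group (axis in log2 units), for the 10 members. In L_C replicate 4, Tlr9, Ly96, Tlr8, Tlr7 and Tlr3 lay at 133 to 156% of the other L_C libraries, while Cd14 and Tlr4 lay at 89.2 and 90.0%.

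Levels between genes were compared as CPM per kb of exon (union of the exons in GENCODE vM21), and the order from highest to lowest was nearly the same in all groups. Tlr13 led, with 144 CPM per kb in H_O, 160.2 in H_C, 135 in L_O and 155 in L_C. Tlr7 stood at 76.2 CPM per kb in H_O, 67.4 in H_C, 58.4 in L_O and 56.1 in L_C. Tlr8 stood at 55.8 in H_O, 42.4 in H_C, 55.5 in L_O and 49.6 in L_C. Cd14 was the member that changed place: its level of 58.9 CPM per kb was the third in H_O and 72.8 the second in H_C, whereas 25.8 in L_O and 43.5 in L_C placed it below Tlr7 and Tlr8. Tlr4 lay between 22.9 and 28.5 CPM per kb over the 4 groups, Tlr2 between 22.4 and 24.2, and Myd88 between 18.5 and 22.2. Ly96, Tlr9 and Tlr3 were the lowest, at 9.11 to 10.8, 4.77 to 10.1 and 2.76 to 3.67 CPM per kb.

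Neighbours whose mean ± SD ranges overlapped were Cd14 with Tlr8 and Tlr2 with Myd88 in H_O, and Cd14 with Tlr7 in H_C. In L_O they were Tlr7 with Tlr8, Cd14 with Tlr4, Tlr4 with Tlr2 and Tlr2 with Myd88. In L_C they were Tlr7 with Tlr8, Tlr8 with Cd14, Tlr4 with Tlr2 and Ly96 with Tlr9. With the length of the longest coding transcript instead, Myd88 stood above Tlr2 in all 4 groups and Tlr4 above Cd14 in L_O.

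**Figure D3:**
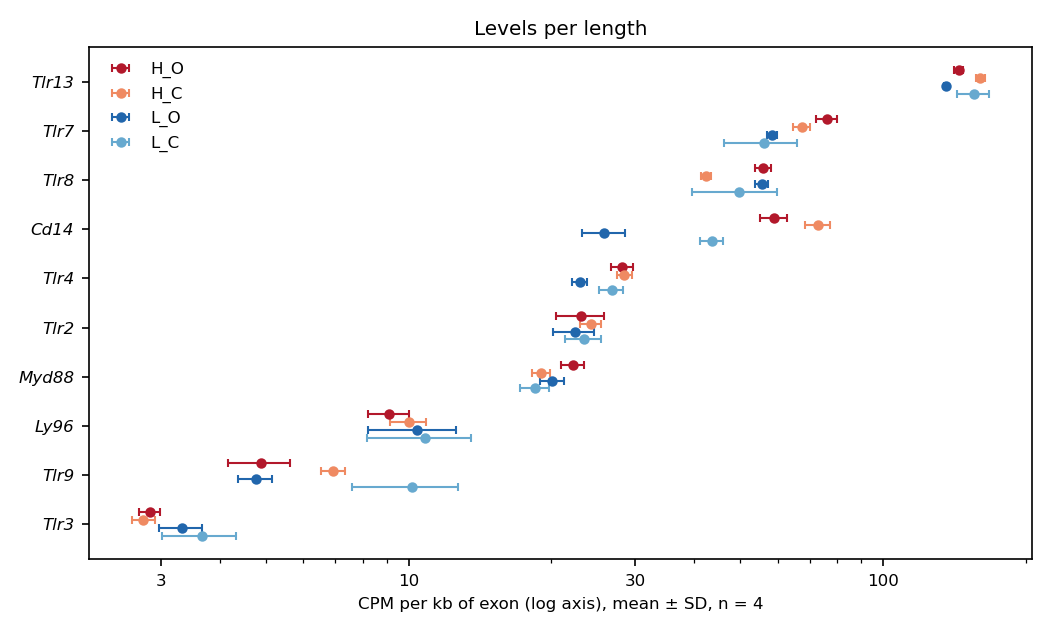
Mean level of each member in CPM per kb of exon (log axis) in H_O, H_C, L_O and L_C, with SD over 4 libraries. Tlr13 is highest in every group, and Cd14 moves between 25.8 in L_O and 72.8 in H_C.

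Cd14, the lipopolysaccharide-binding co-receptor of TLR4, differed between all 4 pairs of groups without overlap. Its level was 102, 111, 94.9 and 100.2 CPM in the H_O libraries, 135, 117, 129.7 and 123 CPM in H_C, 42.0, 49.9, 47.4 and 39.8 CPM in L_O, and 78.2, 76.6, 77.6 and 69.1 CPM in L_C. H_C was highest and L_O lowest, and every library with high glucose lay above every library with low glucose. With high glucose, Cd14 rose by 0.74 ± 0.070 on the log2 scale in H_C against L_C (SE from the fit; edgeR adjusted p = 3.37e-06) and by 1.19 ± 0.071 in H_O against L_O (adjusted p = 1.88e-08). With ox-LDL it fell, with a log2 fold change of -0.75 ± 0.072 in L_O against L_C (adjusted p = 2.88e-07) and -0.31 ± 0.070 in H_O against H_C (adjusted p = 0.00352). Over 25 other settings per comparison each of these calls was the same. Of all tested genes, 26.1% had groups without overlap in L_O against L_C, 29.5% in H_O against H_C, 17.4% in H_C against L_C and 17.7% in H_O against L_O.

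Tlr4, the lipopolysaccharide receptor itself, lay lower in the L_O libraries than in all others. It stood at 159, 167, 147 and 153 CPM in H_O and at 151, 157, 159 and 165 CPM in H_C, which overlap. It stood at 129.7, 120.4, 131 and 128 CPM in L_O and at 155, 156, 147 and 137 CPM in L_C, with all L_O libraries below. Tlr4 fell in L_O against L_C, with a log2 fold change of -0.23 ± 0.051 (edgeR adjusted p = 0.00287), and rose in H_O against L_O, with 0.30 ± 0.051 (adjusted p = 0.00138). With library totals alone the first was -0.14 (adjusted p = 0.0673). In H_O against H_C the value was -0.01 with a 95% interval from -0.12 to 0.09 (adjusted p = 0.893), and in H_C against L_C it was 0.09 (adjusted p = 0.293).

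Tlr2 and Ly96 gave no call in any comparison or under any of the alternatives. Tlr2, the lipopeptide receptor, averaged 69.7 ± 8.25 CPM in H_O, 73.0 ± 3.79 CPM in H_C, 67.4 ± 6.84 CPM in L_O and 70.6 ± 6.05 CPM in L_C (mean ± SD, n = 4 each). Its 95% intervals ran from -0.25 to 0.11 on the log2 scale in both ox-LDL comparisons and from -0.13 to 0.23 in both glucose comparisons. Ly96, whose product MD-2 carries the lipid part of lipopolysaccharide, averaged 9.30 ± 0.904 CPM in H_O, 10.2 ± 0.872 CPM in H_C, 10.6 ± 2.23 CPM in L_O and 11.1 ± 2.73 CPM in L_C. The L_O libraries spread from 7.35 CPM in replicate 1 to 12.4 CPM in replicate 4, and L_C replicate 4 was highest at 14.9 CPM. The Ly96 intervals were wider than those of Tlr2, from -0.41 to 0.28 in L_O against L_C, from -0.48 to 0.21 in H_O against H_C, from -0.46 to 0.23 in H_C against L_C and from -0.54 to 0.15 in H_O against L_O. A fall as large as that of Tlr4 in L_O against L_C lies within the intervals of both Tlr2 and Ly96 in the same comparison. A fall of that size is therefore not shown to be absent for either gene. Without L_C replicate 4 the Ly96 value changed sign, to 0.12 (adjusted p = 0.616) in L_O against L_C and to 0.06 (adjusted p = 0.844) in H_C against L_C, against -0.06 and -0.12 with it.

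**Figure D4:**
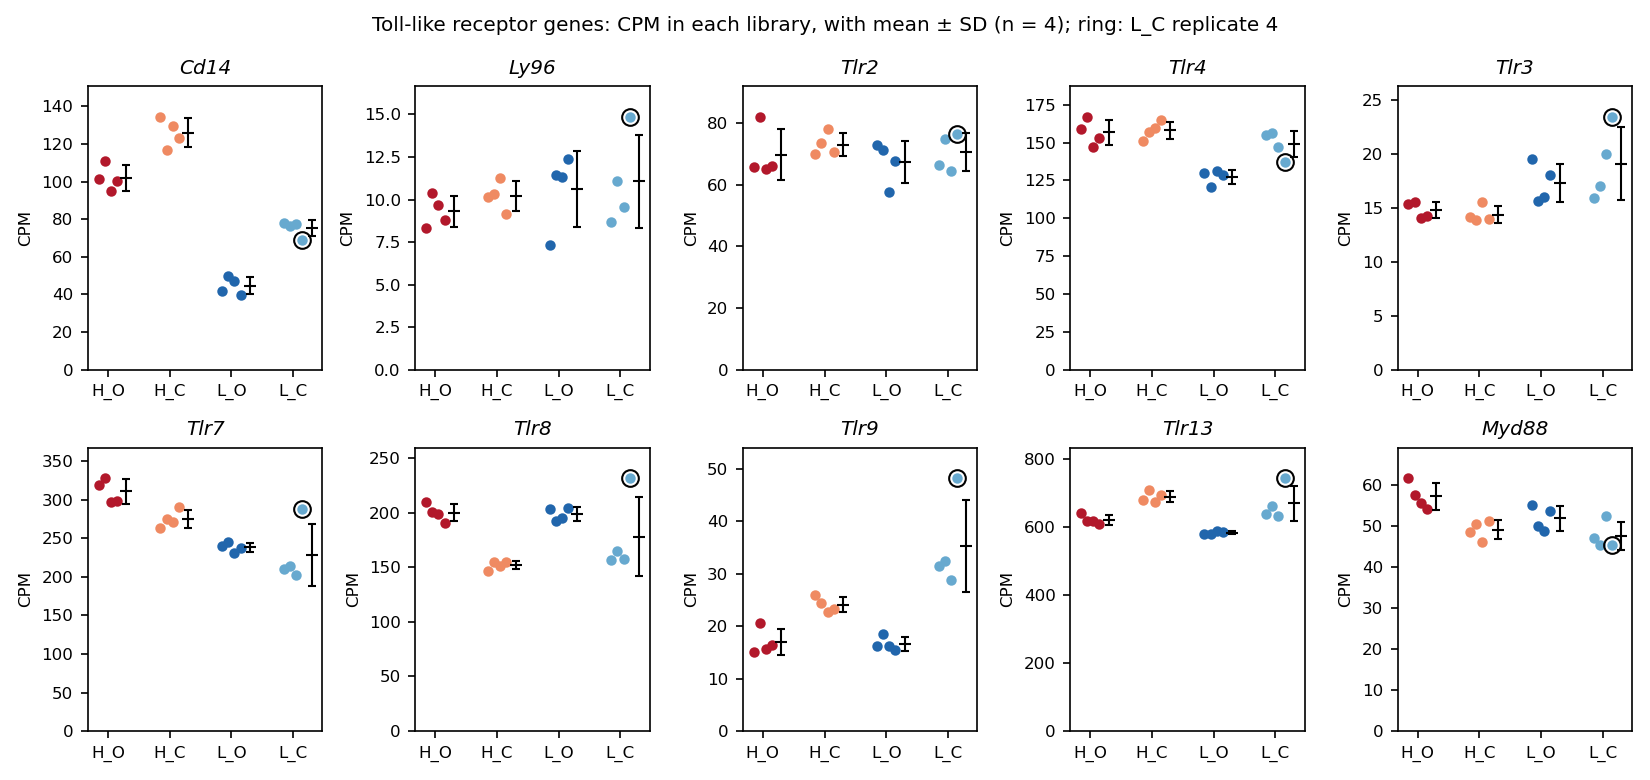
CPM of each member in every library (vertical axis from 0), in panels by gene with H_O, H_C, L_O and L_C from left to right and L_C replicate 4 ringed. The ringed library lies above the other L_C libraries for Tlr7, Tlr8 and Tlr9, and the 4 Cd14 groups are apart from each other.

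Among the endosomal receptors, Tlr9, the sensor of CpG DNA, had the largest change with ox-LDL. Its level was 15.2, 20.7, 15.6 and 16.4 CPM in H_O, 26.0, 24.4, 22.8 and 23.4 CPM in H_C, 16.2, 18.5, 16.2 and 15.4 CPM in L_O, and 31.5, 32.5, 28.9 and 48.3 CPM in L_C. The ox-LDL libraries of both glucose conditions lay together at the bottom, H_C lay above them and L_C highest. Tlr9 fell in L_O against L_C, with a log2 fold change of -1.09 ± 0.13 (edgeR adjusted p = 6.72e-06; -0.90 and 5.09e-07 without L_C replicate 4), and in H_O against H_C, with -0.51 ± 0.13 (adjusted p = 0.0102). It also fell in H_C against L_C, with -0.55 ± 0.13 (adjusted p = 0.0102), and this was -0.36 (adjusted p = 0.0140) without L_C replicate 4. In H_O against L_O it was 0.03, with a 95% interval from -0.25 to 0.32 (adjusted p = 0.931).

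Tlr7, a sensor of single-stranded RNA, was higher with high glucose. It had 319.9, 328, 297 and 299 CPM in H_O, 264, 276, 271 and 290.3 CPM in H_C, 239.6, 246, 232 and 237 CPM in L_O, and 211, 214, 202 and 289 CPM in L_C. H_O lay above the other groups, and L_C replicate 4 lay within the range of H_C. Tlr7 rose in H_O against L_O, with a log2 fold change of 0.38 ± 0.082 (edgeR adjusted p = 0.00830), and in H_C against L_C, with 0.27 ± 0.082 (adjusted p = 0.0407). The second call was lost in 14 of the alternatives, with adjusted p up to 0.138, while it was 0.40 (adjusted p = 2.71e-06) without L_C replicate 4. In H_O against H_C, where all H_O libraries were higher, the log2 fold change was 0.18 (adjusted p = 0.146; 0.00111 without L_C replicate 4 and 0.00543 in a fit of the 8 libraries compared). In L_O against L_C it was 0.06 (adjusted p = 0.657), and 0.19 (adjusted p = 0.00131) without L_C replicate 4.

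Tlr8, the neighbour of Tlr7 on the X chromosome, was higher with ox-LDL in high glucose. It had 209.8, 200.5, 199 and 191 CPM in H_O, against 147, 155, 151 and 155 CPM in H_C, and 204, 192, 195 and 205 CPM in L_O, against 157, 165, 158 and 232 CPM in L_C. Apart from L_C replicate 4, every ox-LDL library lay above every library without it. Tlr8 rose in H_O against H_C, with a log2 fold change of 0.40 ± 0.090 (edgeR adjusted p = 0.00330). In L_O against L_C it was 0.16 ± 0.090 (adjusted p = 0.215), and 0.31 (adjusted p = 2.15e-06) without L_C replicate 4. High glucose gave 0.01 in H_O against L_O (adjusted p = 0.978; 95% interval -0.18 to 0.20) and -0.23 in H_C against L_C (adjusted p = 0.108; all H_C libraries lower). The value of H_C against L_C was -0.08 (adjusted p = 0.196) without L_C replicate 4.

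Tlr13, the receptor for bacterial ribosomal RNA and the most abundant member, fell with ox-LDL by a small amount. It had 642, 618, 618 and 608 CPM in H_O, against 680.1, 708, 675 and 695 CPM in H_C, and 580.3, 578, 589 and 585 CPM in L_O, against 638, 661, 633 and 744 CPM in L_C. The ox-LDL libraries lay below their controls without overlap in both glucose conditions. The log2 fold change was -0.20 ± 0.045 in L_O against L_C (edgeR adjusted p = 0.00278) and -0.15 ± 0.045 in H_O against H_C (adjusted p = 0.0218). The second was not called with library totals alone (-0.08, adjusted p = 0.126) or without H_C replicate 2, H_C replicate 4, H_O replicate 3 or H_O replicate 4 (adjusted p from 0.0539 to 0.0712). With high glucose it was 0.04 in H_C against L_C (adjusted p = 0.596; 0.10 and 0.0211 without L_C replicate 4) and 0.09 in H_O against L_O (adjusted p = 0.271; 0.0229 without L_C replicate 4).

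Tlr3, the sensor of double-stranded RNA and the lowest member per kb, fell with high glucose alone. It had 15.4, 15.6, 14.1 and 14.2 CPM in H_O, 14.1, 13.8, 15.6 and 14.0 CPM in H_C, 19.5, 15.7, 16.02 and 18.0 CPM in L_O, and 15.95, 17.0, 19.98 and 23.5 CPM in L_C. Both high glucose groups lay below both low glucose groups, by a narrow gap between the highest H_C library (15.57 CPM) and the lowest L_O library (15.68 CPM). In H_C against L_C the log2 fold change was -0.41 ± 0.11 (edgeR adjusted p = 0.0168), -0.29 (adjusted p = 0.0406) without L_C replicate 4 and -0.40 (adjusted p = 0.0724) in a fit of the 8 libraries compared. In H_O against L_O it was -0.22 ± 0.11 (adjusted p = 0.259), and the ox-LDL comparisons gave -0.14 in L_O against L_C (adjusted p = 0.365; -0.03 and 0.873 without L_C replicate 4) and 0.04 in H_O against H_C (adjusted p = 0.840).

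Myd88, the adaptor that most of these receptors share, rose with ox-LDL in high glucose. It had 61.6, 57.4, 55.5 and 54.1 CPM in H_O, against 48.5, 50.4, 46.1 and 51.2 CPM in H_C, and 54.9, 49.9, 48.6 and 53.5 CPM in L_O, against 47.1, 45.4, 52.4 and 45.3 CPM in L_C. H_O lay above H_C without overlap, while L_O and L_C overlapped. The log2 fold change was 0.22 ± 0.062 in H_O against H_C (edgeR adjusted p = 0.0141), which was not called without H_C replicate 3 (adjusted p = 0.0748) or without H_O replicate 1 (0.0575). In L_O against L_C it was 0.12 ± 0.062 (adjusted p = 0.165), and it was called without L_C replicate 3 (0.17, adjusted p = 0.0484). The glucose comparisons gave 0.04 in H_C against L_C (adjusted p = 0.705) and 0.14 in H_O against L_O (adjusted p = 0.198). Acaa1a, which overlaps Myd88, had 99.7 ± 5.51 CPM in H_O and 76.4 ± 4.52 CPM in H_C (SD, n = 4 each; log2 fold change 0.38, edgeR adjusted p = 0.0841), and the part of its reads in the Myd88 counts was not tested.

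Whether the ox-LDL change differed between the glucose conditions was tested as an interaction (the change in high glucose minus that in low glucose). By the labels, only the low glucose pair includes a loss of mannitol. In the interaction, dependence on glucose therefore cannot be told apart from the loss of mannitol. No member passed with edgeR, where 0.0148% of all genes did (0.00739% higher and 0.00739% lower), 3 members had an unadjusted p below 0.05 (Cd14, Tlr4 and Tlr9, beside 8.58% of all genes at that threshold), limma-voom called none and DESeq2 called Cd14. The Cd14 difference was 0.44 ± 0.10 on the log2 scale (edgeR adjusted p = 0.114; DESeq2 adjusted p = 0.00870), and 0.48 (edgeR adjusted p = 0.0343, with 0.386% of all genes called) without L_C replicate 4. The other differences were 0.58 ± 0.19 for Tlr9 (adjusted p = 0.343; 0.39 and 0.254 without L_C replicate 4) and 0.21 ± 0.072 for Tlr4 (adjusted p = 0.376; 0.25 and 0.0910). For Tlr8, called in high glucose and not in low glucose, the difference was 0.24 ± 0.13 (adjusted p = 0.648), so the effects are not shown to differ. Without L_C replicate 4 it was 0.08 (adjusted p = 0.635), and Tlr8 was then called in both glucose conditions. The differences of Tlr7 and Tlr13 were 0.12 and 0.05 with that library and -0.01 and -0.0058 without it (adjusted p at least 0.829 in all 4). For Myd88, also called in high glucose and not in low glucose, the difference was 0.10 ± 0.087 (edgeR adjusted p = 0.805). Its effects are likewise not shown to differ.

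Ratios of counts within a library do not depend on the scaling, and they are given as a description chosen after the values were seen. Reads of Cd14 per read of Tlr4 were 0.639 to 0.664 in H_O, 0.746 to 0.890 in H_C, 0.310 to 0.414 in L_O and 0.490 to 0.528 in L_C, with no overlap between groups. Reads of Tlr8 per read of Tlr7 were 0.610 to 0.670 in H_O, 0.534 to 0.561 in H_C, 0.783 to 0.862 in L_O and 0.746 to 0.803 in L_C. Reads of Tlr7 per read of Tlr9 were 15.9 to 21.1 in H_O, 10.2 to 12.4 in H_C, 13.2 to 15.4 in L_O and 5.98 to 7 in L_C. L_C replicate 4, in which both genes were high, had the lowest of these ratios, 5.98. Reads of Tlr2 per read of Tlr4 overlapped, at 0.414 to 0.491 in H_O, 0.427 to 0.490 in H_C, 0.440 to 0.592 in L_O and 0.427 to 0.557 in L_C.

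The 3 members with the widest span of group means on the log2 scale were Cd14 (1.497), Tlr9 (1.06) and Tlr7 (0.46). Likeness to other genes was measured as the root mean square difference of centred log2 CPM over the 16 libraries, among 8365 genes. The genes nearest to Cd14 were Ctsk, a lysosomal cysteine protease (0.213), Btg2, an anti-proliferative gene (0.216), and Arhgap22 (0.263). Ctsk averaged 192 CPM in H_O, 234 in H_C, 113 in L_O and 136 in L_C. The nearest to Tlr9 were Srgn, the core protein of granule proteoglycans (0.126), Csf3r, the receptor of granulocyte colony-stimulating factor (0.148), and Lgals3bp, a secreted galectin-binding protein (0.157). Srgn averaged 55.7 CPM in H_O, 78.9 in H_C, 48.0 in L_O and 108 in L_C. The nearest to Tlr7 were Stxbp5, a syntaxin-binding protein (0.0844), Arhgef6 (0.0895), and Hipk1, a nuclear kinase (0.0964).

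The rest of the pathway was read from 9 lists with 123 genes, of which 118 were tested. With ox-LDL, 55 fell and 11 rose in L_O against L_C (median log2 fold change -0.22) and 38 fell and 15 rose in H_O against H_C (median -0.11). Of all tested genes, 13.8% fell and 12% rose in the first (median 0.00092), and 11.5% and 10.4% in the second (median 0.0089). With high glucose, 24 fell and 4 rose in H_C against L_C (median -0.09) and 6 fell and 4 rose in H_O against L_O (median -0.02). Beside these, 7.75% of all tested genes fell and 5.02% rose in H_C against L_C (median -0.0045). In H_O against L_O, 3.39% of all tested genes fell and 2.71% rose (median 0.0030). The same shares stand beside the counts of each list below. The lists were chosen with earlier results of these data known. Without L_C replicate 4 the counts of list genes that fell and rose were 55 and 14, 43 and 19, 24 and 7, and 11 and 12 in the same order. In either direction, 28.3%, 28.9%, 15.9% and 12.8% of all genes were then called, against 25.8%, 21.9%, 12.8% and 6.11% with that library. The counts of H_O against L_O, which does not include L_C, grew along with those over all genes. No gene of the lists passed the interaction test, beside 0.0148% of all genes. Of the 118, 22 had an unadjusted edgeR p below 0.05, beside 8.58% of all genes. Without L_C replicate 4, 3 were called in the interaction, beside 0.386% of all genes.

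**Figure D5:**
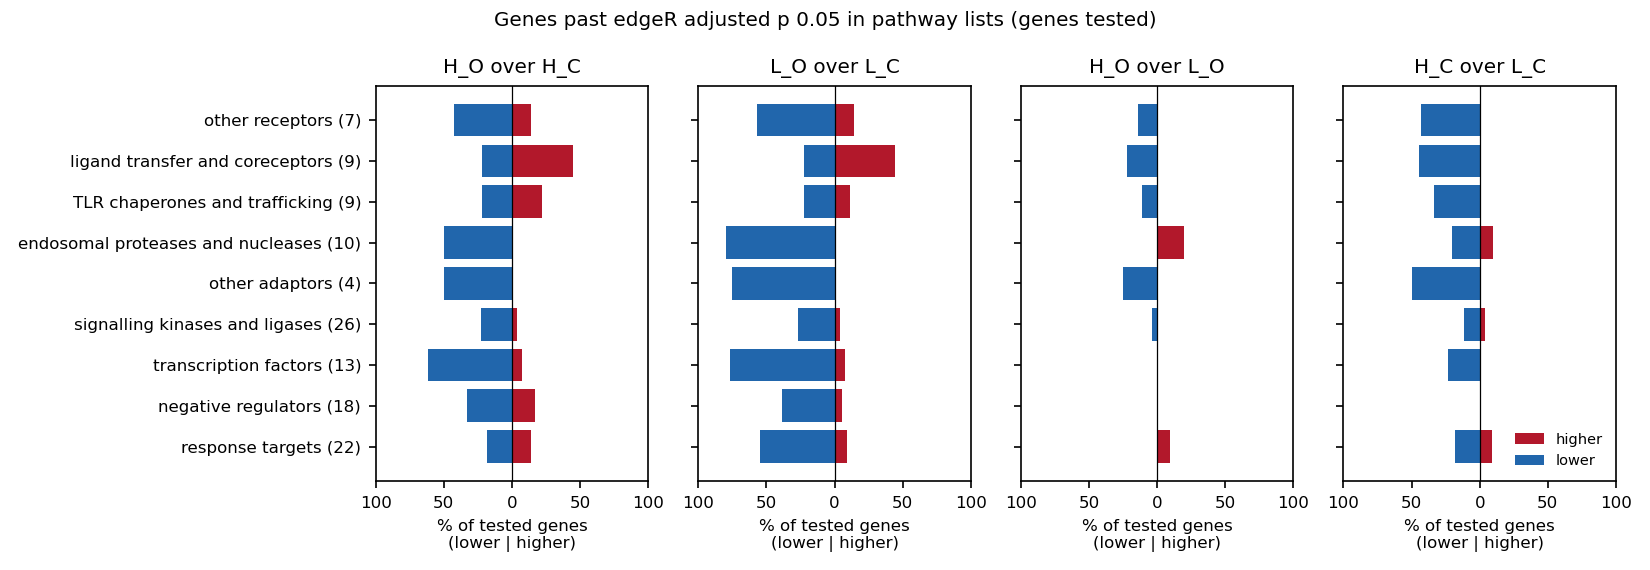
Percentage of the tested genes of each pathway list called higher or lower in each comparison (horizontal axis). Transcription factors had 10 of 13 genes lower in L_O against L_C and 8 of 13 in H_O against H_C, while coreceptors had 4 of 9 higher in both. Over all tested genes, 13.8% were lower and 12% higher in L_O against L_C, and 11.5% and 10.4% in H_O against H_C.

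Of 7 other receptors and their partners, 4 fell and 1 rose in L_O against L_C, and 3 fell and 1 rose in H_O against H_C. Cd180, a receptor related to TLR4 that dampens its signalling, had 257 ± 5.38 CPM in H_O, 334 ± 19.7 CPM in H_C, 346 ± 15.5 CPM in L_O and 595 ± 124 CPM in L_C (SD, n = 4 each). It fell in all 4 comparisons, with log2 fold changes of -0.78 ± 0.094 in L_O against L_C, -0.38 ± 0.095 in H_O against H_C, -0.83 ± 0.094 in H_C against L_C and -0.43 ± 0.095 in H_O against L_O (edgeR adjusted p at most 0.0102). Ly86, which encodes the MD-1 protein that binds CD180, fell in L_O against L_C (-0.998 ± 0.13, edgeR adjusted p = 8.51e-06) and in H_O against H_C (-0.72 ± 0.13, adjusted p = 0.000326). The L_C libraries spread from 506 to 778 CPM for Cd180 and from 70.2 to 101 CPM for Ly86. Without L_C replicate 4, 4 of the 7 fell in L_O against L_C and 2 in H_C against L_C, against 4 and 3 with it. Tlr5, the flagellin receptor, rose in both ox-LDL comparisons at very low levels, with 30 to 60 reads in the H_O libraries and 0 to 10 in H_C. Tlr12, a mouse receptor of parasite profilin, had 0 to 9 reads in L_O and 67 to 148 in L_C. Tlr1 and Tlr6, the partners of Tlr2, averaged 52.7 and 33.7 CPM over all libraries and were not called in any comparison, with edgeR adjusted p of at least 0.156.

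Among 9 genes for ligand transfer and co-receptors, 4 rose and 2 fell in both ox-LDL comparisons. Cd36, the scavenger receptor for ox-LDL, had 4265 ± 323 CPM in H_O, 1541 ± 42.6 CPM in H_C, 4627 ± 70.9 CPM in L_O and 1778 ± 155 CPM in L_C (SD, n = 4 each). It rose in H_O against H_C by 1.47 ± 0.057 and in L_O against L_C by 1.38 ± 0.057 on the log2 scale (edgeR adjusted p = 3.52e-12 and 9.70e-12). Msr1, scavenger receptor A, rose by 0.84 ± 0.059 and 0.47 ± 0.058 in these comparisons, and Itgam, a chain of complement receptor 3, by 0.72 ± 0.054 and 0.34 ± 0.054 (edgeR adjusted p at most 0.00011). Clec7a, the beta-glucan receptor Dectin-1, fell in all 4 comparisons, with -0.65 ± 0.048 in H_O against H_C and -0.71 ± 0.048 in L_O against L_C. The co-receptor Cd14 thus moved opposite to Cd36 with ox-LDL in both glucose conditions.

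Of 9 chaperones and trafficking genes, 3 fell in H_C against L_C and none rose. With ox-LDL, 2 fell and 1 rose in L_O against L_C, and 2 fell and 2 rose in H_O against H_C. In H_O against L_O 1 fell and none rose. Unc93b1, which carries the endosomal receptors out of the endoplasmic reticulum, fell in H_C against L_C (-0.28 ± 0.042, edgeR adjusted p = 0.000197) and in L_O against L_C (-0.19 ± 0.042, adjusted p = 0.00202), with -0.04 in H_O against H_C (adjusted p = 0.536). Hsp90b1, the chaperone gp96 needed to fold these receptors, fell in H_C against L_C (-0.33 ± 0.044, adjusted p = 0.000106) and rose in H_O against H_C (0.15 ± 0.044, adjusted p = 0.0196). Ap3b1, a chain of the adaptor complex AP-3, fell in both glucose comparisons, with -0.22 in each. Of 10 endosomal proteases and nucleases, 8 fell and none rose in L_O against L_C, and 5 fell and none rose in H_O against H_C. Ctss, a cathepsin that cuts endosomal receptors, fell in L_O against L_C (-0.56 ± 0.058, edgeR adjusted p = 8.20e-07) and in H_O against H_C (-0.44 ± 0.058, adjusted p = 1.38e-05). Rnaset2a and Rnaset2b, near-identical copies of an RNase that makes ligands of TLR8 in humans and whose reads may not be told apart, fell in L_O against L_C by 0.53 and 0.55 on the log2 scale. Both count among the 8 genes that fell there. In H_O against H_C neither was called (-0.11 and -0.097, edgeR adjusted p = 0.285 and 0.446). Both also fell in H_C against L_C (-0.59 and -0.56, edgeR adjusted p = 2.16e-05 and 0.000124).

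Of the 4 other adaptors tested, 3 fell and none rose in L_O against L_C. Ticam2, which encodes the bridging adaptor TRAM of TLR4, fell in L_O against L_C (-0.79 ± 0.067, edgeR adjusted p = 7.21e-08) and in H_O against H_C (-0.57 ± 0.067, adjusted p = 4.72e-06). Ticam1, which encodes TRIF, fell in both as well (-0.57 ± 0.094 and -0.55 ± 0.094), so these adaptor genes moved opposite to Myd88 in H_O against H_C. Tirap, the adaptor that links MYD88 to TLR2 and TLR4, fell in L_O against L_C (-0.22 ± 0.074, adjusted p = 0.0354). Pik3ap1, an adaptor to phosphoinositide 3-kinase, fell in H_C against L_C (-0.35 ± 0.046) and in H_O against L_O (-0.24 ± 0.046). Of 26 kinases and ubiquitin ligases, 7 fell and 1 rose in L_O against L_C and 6 fell and 1 rose in H_O against H_C. Ikbke, the kinase IKK-epsilon, fell by 0.98 and 1.01 on the log2 scale in these comparisons, and Irak2, a kinase of the MYD88 complex, fell by 0.82 and 0.81, with Peli2 and Tbk1 also lower in both (edgeR adjusted p at most 0.00943).

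Of 13 transcription factors, 10 fell and 1 rose in L_O against L_C, and 8 fell and 1 rose in H_O against H_C. Irf5, which acts downstream of MYD88, fell in both (-0.51 ± 0.043 and -0.48 ± 0.043), as did Irf8 (-0.63 ± 0.067 and -0.42 ± 0.067) and Irf1 (-1.47 ± 0.16 and -0.93 ± 0.16), while the AP-1 gene Fos rose (1.28 ± 0.12 and 1.41 ± 0.12). Of 18 negative regulators, 7 fell and 1 rose in L_O against L_C, and 6 fell and 3 rose in H_O against H_C. Atf3, a repressor induced by these receptors, fell in both (-0.66 ± 0.090 and -0.85 ± 0.090), as did Trafd1 and Tnip1, and Inpp5d, which encodes the phosphatase SHIP1, rose in both (0.35 ± 0.049 and 0.46 ± 0.049). Of 22 response genes tested, 12 fell and 2 rose in L_O against L_C, and 4 fell and 3 rose in H_O against H_C. Ccl5, a chemokine, had 12.3 ± 2.34 CPM in H_O, 34.4 ± 3.11 CPM in H_C, 7.13 ± 0.619 CPM in L_O and 21.9 ± 3.76 CPM in L_C, so it was lower with ox-LDL and higher with high glucose in both pairs (edgeR adjusted p at most 0.00261). Acod1, the itaconate enzyme, fell in L_O against L_C (-3.12 ± 0.35) and in H_O against H_C (-1.63 ± 0.35), Saa3 also fell in both, and the co-stimulatory gene Cd80 rose in both (0.46 ± 0.10 and 0.70 ± 0.10).

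Markers of other cells that use these receptors were summed in each library. The B-cell list, for cells that express Tlr9, had 5 of 8 genes in the table and summed to 1.21 to 1.72 CPM in H_O, 1.42 to 2.35 in H_C, 0.760 to 1.60 in L_O and 1.71 to 2.36 in L_C, with Pax5 at 0 in all L_O libraries. Tlr9 itself lay between 15.2 and 48.3 CPM over the 16 libraries. The plasmacytoid dendritic cell list, for cells that express Tlr7 and Tlr9, had 4 of 7 genes and summed to 99.3 to 114 CPM in H_O, 91.7 to 103 in H_C, 108 to 116 in L_O and 77.9 to 129 in L_C, of which Bst2 and Tcf4 made nearly all and the defining genes Ccr9 and Spib averaged at most 0.482 CPM in any group. The conventional dendritic cell list (7 of 8) summed to 2.71 to 3.54 CPM in H_O, 3.51 to 5.89 in H_C, 1.61 to 4.26 in L_O and 4.71 to 8.04 in L_C. The T and NK cell list (9 of 11) summed to 5.22 to 7.38 CPM in H_O, 6.86 to 10.8 in H_C, 4.33 to 6.47 in L_O and 7.99 to 12.4 in L_C. The B-cell, conventional dendritic and T and NK cell sums thus lay lower in L_O than in L_C without overlap, as Tlr9 did. For all of them H_O and H_C overlapped. By gene, 1 of 4, 1 of 5 and 3 of 8 tested fell in L_O against L_C, beside 13.8% of all genes. The neutrophil list (4 of 9) summed to 4.01 to 4.82 CPM in H_O, 3.25 to 4.64 in H_C, 3.74 to 5.74 in L_O and 5.30 to 6.00 in L_C, and the mast cell and basophil list (2 of 8) to at most 0.493 CPM in any library.

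Other marker lists also moved with the groups. Of the 6 eosinophil genes listed, 2 were in the table, and Ccr3 averaged at most 0.0745 CPM in any group, so the sum was almost wholly Siglecf. It was 4.70 to 5.76 CPM in H_O, against 19.7 to 23.6 in H_C, and 3.69 to 4.98 CPM in L_O, against 14.2 to 20.7 in L_C. Siglecf was thus lower with ox-LDL, as Tlr9 and Cd14 were, and this is the change of 1 gene rather than of the list. The 12 markers of large peritoneal macrophages summed to 527 to 575 CPM in H_O, 568 to 613 in H_C, 622 to 666 in L_O and 651 to 759 in L_C. Most of this sum was Adgre1, at 451 CPM in H_O, 377 in H_C, 528 in L_O and 488 in L_C on average. Counted by gene, 5 of the 12 fell and none rose in L_O against L_C (median log2 fold change -0.99), and 5 fell and 1 rose in H_O against H_C (median -0.49). Over all tested genes, 13.8% fell and 12% rose in L_O against L_C, and 11.5% and 10.4% in H_O against H_C. F10, a coagulation factor chosen after its values were seen, averaged 71.8 CPM in H_O, 158 in H_C, 75.7 in L_O and 169 in L_C, and so lay lower with ox-LDL beside Tlr9 and Cd14. The 10 markers of small peritoneal macrophages and monocytes summed to 869 to 967 CPM in H_O, 1009 to 1062.5 in H_C, 1192 to 1215 in L_O and 1298 to 1389.8 in L_C. In this list Mrc1, also chosen after its values were seen, averaged 547 CPM in H_O, 257 in H_C, 703 in L_O and 322 in L_C, while 5 of the 10 genes fell and 1 rose in L_O against L_C (median -0.81) and 3 fell and 1 rose in H_O against H_C (median -0.67). Both sums were lower with high glucose, where Cd14 and Tlr7 were higher. By gene, 4 of 12 and 4 of 10 fell in H_C against L_C, 1 of 12 and 3 of 10 fell in H_O against L_O, and none rose. Of all tested genes, 7.75% fell in H_C against L_C and 3.39% in H_O against L_O. The 10 markers of mesothelial cells and fibroblasts summed to 40.5 to 113 CPM in H_O, 42.7 to 223 in H_C, 26.8 to 41.4 in L_O and 64.1 to 90.2 in L_C. The part of these cell types in the member changes was not tested.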

How the data were processed

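RNA was sequenced from 16 libraries of starch-elicited peritoneal macrophages, 4 per group, with groups taken from the labels. The authors deposited a table of read counts per gene with 15871 entries, of which 1594 are unannotated regions, and every entry has a read in at least 4 libraries. HISAT2, DESeq2 and the mm10 build are named without versions or roles, per the submitters' processing notes. The counting tool, annotation and strand setting are not given in the sources used here, and strand affects genes with overlapping partners. Totals of 32596600 to 41712900 counts set the counting error.

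From the counts, edgeR 4.0.16 in R 4.3.3 fitted a mean per group over all 16 libraries (quasi-likelihood F test, two-sided, TMM, filterByExpr by group, 12 residual degrees of freedom). P-values were adjusted by Benjamini-Hochberg over 13527 tested entries, with a threshold of 0.05, in 4 pairwise comparisons and the interaction. Levels are CPM with TMM factors, log2 CPM used a prior count of 2, and fold changes carry the SE of the fit. The pipeline was tested on simulated data.

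The members and lists were chosen with earlier results of these data known. Named genes were all members and, from each pathway list, up to 4 genes with the smallest adjusted p, with others where their level was needed. Genes of like pattern were the 3 nearest, among genes with a mean log2 CPM of at least 3, for the 3 members of widest span. Acaa1a was added after its values were seen. Alternatives were RLE and upper-quartile factors, library totals alone, no low-count filter, at least 1 CPM in at least 4 libraries, DESeq2 1.42.0, limma-voom (limma 3.58.1), the replicate number as a block, the 8 libraries compared, and leaving out each library in turn.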

Additional observations from a re-analysis of the deposited data

Results flagged for a closer look

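Of 40 checks of a member within a group, 4 had a single library far from the other 3, by Dixon's test at its 95% critical value, where chance flags about 1 in 20. Tlr7 in L_C replicate 4 had 289 CPM, against 202 to 214 CPM in the other L_C libraries, and Tlr8 in the same library had 232 CPM, against 157 to 165 CPM. That library also had a mitochondrial share of 3.71% of counts, whose part in these values was not tested. Tlr2 in H_O replicate 2 had 82.1 CPM, against 65.1 to 65.9 CPM in the other H_O libraries. Tlr3 in H_C replicate 3 had 15.6 CPM, against 13.8 to 14.1 CPM in the other H_C libraries.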

How the results depend on the processing

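Of the single-member values under the alternatives, 1173 kept their direction and their side of the threshold, 13 passed where the reported fit did not, 23 no longer passed and 31 changed sign, and none of the values that changed sign was called in either fit. All 4 calls of Cd14 and all 3 of Tlr9 held throughout. With library totals alone, 2 members rose in L_O against L_C, and 2857 genes rose in L_O against L_C and 2176 in H_O against H_C. In fits of the 8 libraries compared, 1 member rose and 1 fell in H_C against L_C, 340 genes rose and 574 fell there, and 718 rose and 901 fell in H_O against L_O. For the interaction, DESeq2 called 1 member (Cd14), and 76 genes higher and 15 lower, while limma-voom called 0 and 0 genes. Same-numbered libraries showed little shared deviation from their groups (correlations from -0.164 to 0.0666). These values do not tell whether such libraries share an animal, culture or day. The replicate block gave 0 and 0 genes in the interaction and changed no call of a member. The cause of these shifts was not tested.

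The sign changes were in 11 results. With library totals alone, the log2 fold change was 0.031 for Ly96 and 0.020 for Tlr2 in L_O against L_C and 0.051 for Tlr4 in H_O against H_C, and with no low-count filter the interaction of Tlr2 was 0.00082. Leaving out each library in turn, Ly96 ranged from -0.16 to 0.12 in L_O against L_C, from -0.22 to 0.061 in H_C against L_C and from -0.25 to 0.024 in the interaction. Tlr2 ranged from -0.11 to 0.0018 in L_O against L_C, from -0.040 to 0.088 in H_O against L_O and from -0.088 to 0.040 in the interaction. Tlr4 ranged from -0.046 to 0.015 in H_O against H_C, Tlr8 from -0.016 to 0.030 and Tlr9 from -0.075 to 0.093 in H_O against L_O, and Tlr7 from -0.014 to 0.17 and Tlr13 from -0.0058 to 0.075 in the interaction.

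Leaving out each library in turn, members that rose numbered 0 to 2 in L_O against L_C, 1 to 3 in H_O against H_C, 1 to 3 in H_C against L_C, 3 to 4 in H_O against L_O and 0 to 1 in the interaction. Members that fell numbered 4 in each case in L_O against L_C, 2 to 3 in H_O against H_C and 2 in each case in H_C against L_C. Genes that rose and fell numbered 1342 to 1891 and 1627 to 1990 in L_O against L_C, 1146 to 1964 and 1320 to 2001 in H_O against H_C, 463 to 922 and 789 to 1265 in H_C against L_C, 240 to 749 and 286 to 1014 in H_O against L_O, and 0 to 41 and 0 to 12 in the interaction. Ly96 had the widest intervals of the members in the pairwise comparisons.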
